A study of Mus musculus with 3 samples.

Results

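Of the 32285 genes counted in single cells of the adult mouse lacrimal gland (LG), 6 are described here across every cell class of the gland: *Cck*, *Pcp4*, *Nrtn*, *Ntrk3*, *Mia* and *Mdk*. They were chosen by name as neuropeptide and neurotrophic genes of myoepithelial cells (MECs), on measured values from these same cells, so their levels in MECs are given as a description with no test. Of the 6, *Mdk* was the one whose highest mean level was not in MEC-like cells: its level in parenchymal-like fibroblasts overlapped that in MEC-like cells. Fibroblast-like cells held 77.5% of its UMIs and MEC-like cells 18.0% over all libraries, but in the male libraries together 152 of 282 UMIs were in fibroblast-like and 114 in MEC-like cells.

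The LGs came from C57BL/6J mice of 2 months of age with no treatment or transgene, and the dissociated cells were captured in droplets and counted as unique molecular identifiers (UMIs). There were 3 libraries, 1 from females and 2 from males, and each pooled the glands of 3 mice, so a library is the unit of replication and no value belongs to a single animal. The female library was made at another core facility and on another day than the male libraries, hence sex, facility and day cannot be told apart and no sex difference was tested. After filtering, 7652, 5295 and 5397 cells (female library, male library 1, male library 2) remained, with 37641576 to 55390678 UMIs per library. The median cell had 3252, 1884 and 1788 UMIs. Levels are given as CPM, the UMIs of a gene in a class scaled to 1000000 UMIs of that class in that library, always in that library order, with the mean ± SD over the 3 libraries. Transcripts of tear products took 25.5, 48.5 and 47.7% of the UMIs of MEC-like cells, and up to 85.1% of those of acinar-like cells, which lowers the CPM of every other gene in those cells. Between 12 and 18 cell barcodes were shared by any 2 libraries.

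MECs are contractile epithelial cells that wrap the acini and squeeze tears toward the ducts when nerves or oxytocin signal to them. They carry the keratins of basal epithelium together with the contractile proteins of smooth muscle, which they share with the mural cells that surround small blood vessels. Neuropeptides are short peptides cut from larger precursors and released to act on receptors of nearby nerves and cells, while neurotrophic factors are secreted proteins that keep neurons alive and guide their axons. *Cck* encodes the precursor of cholecystokinin, a gut hormone and brain neuropeptide. *Pcp4* encodes a small protein that binds calmodulin and changes how fast it exchanges calcium. *Nrtn* encodes neurturin, a ligand of the GDNF family that signals through the co-receptor GFRA2 and the kinase RET and is needed for the parasympathetic nerves of the LG. *Mdk* encodes midkine, a heparin-binding growth factor whose receptors include PTPRZ1, LRP1 and ALK. *Ntrk3* encodes TrkC, the receptor of neurotrophin-3 (*Ntf3*), and *Mia* encodes a small secreted protein that binds fibronectin and integrins.

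In the mm10 build (GRCm38, GENCODE M21 annotation), *Cck* (ENSMUSG00000032532) lies on the minus strand at chr9:121489824-121495694 and *Pcp4* (ENSMUSG00000090223) on the plus strand at chr16:96467606-96525793. *Nrtn* (ENSMUSG00000039481) lies on the minus strand at chr17:56751325-56757530, and *Ntrk3* (ENSMUSG00000059146) on the minus strand at chr7:78175959-78738012. *Mia* (ENSMUSG00000089661) lies on the minus strand at chr7:27179742-27181157, and *Mdk* (ENSMUSG00000027239) on the minus strand at chr2:91929805-91932297. The annotation placed *Gm9885* on the opposite strand within *Ntrk3*. *Gm9885* had 173 UMIs in all, of which 141 were in MEC-like cells, and whether reads of the 2 genes were told apart by strand is not given in the sources used here. *Pcp4* overlapped *Igsf5* and *Mia* overlapped *Gm21983* on the same strand. The counts are per gene, so the forms of TrkC with and without a kinase domain could not be told apart.

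The RefSeq promoters (GRCm38.p6) of *Cck*, *Pcp4*, *Nrtn* and *Mia*, 4 of the 5 members with their highest level in MEC-like cells, are shown over the 250 bases before the start site because these genes share that class, and *Ntrk3* and *Mdk* had no match. The coordinates are chr9:121495695-121495944 (minus strand) for *Cck*, chr16:96467356-96467605 (plus strand) for *Pcp4*, chr17:56757549-56757798 (minus strand) for *Nrtn* and chr7:27181150-27181399 (minus strand) for *Mia*. Each is written 5′ to 3′ on the strand of its gene, and capitals mark a match to one of the motifs searched.
Cck promoter: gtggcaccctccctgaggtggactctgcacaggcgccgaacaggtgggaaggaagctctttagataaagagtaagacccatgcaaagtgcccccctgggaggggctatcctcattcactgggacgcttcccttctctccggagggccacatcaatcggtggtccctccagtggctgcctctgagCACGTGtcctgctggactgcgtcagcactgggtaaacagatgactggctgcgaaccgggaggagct
Pcp4 promoter: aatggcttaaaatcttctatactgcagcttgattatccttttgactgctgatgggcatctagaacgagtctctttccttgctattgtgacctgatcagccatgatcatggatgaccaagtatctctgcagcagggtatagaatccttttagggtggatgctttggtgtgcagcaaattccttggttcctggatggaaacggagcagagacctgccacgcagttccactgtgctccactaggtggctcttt
Nrtn promoter: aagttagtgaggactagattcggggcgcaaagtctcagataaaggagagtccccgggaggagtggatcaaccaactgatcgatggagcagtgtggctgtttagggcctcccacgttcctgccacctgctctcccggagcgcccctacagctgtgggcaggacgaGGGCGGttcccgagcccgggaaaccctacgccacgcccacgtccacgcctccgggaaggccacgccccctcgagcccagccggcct
Mia promoter: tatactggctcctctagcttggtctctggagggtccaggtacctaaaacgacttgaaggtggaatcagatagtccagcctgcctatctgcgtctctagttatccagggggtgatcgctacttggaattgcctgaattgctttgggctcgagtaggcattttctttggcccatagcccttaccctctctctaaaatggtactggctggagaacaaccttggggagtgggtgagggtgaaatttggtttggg
Both strands were searched for the TATA motif TATAAA, the E-box CACGTG, the GC box GGGCGG, the SOX motif AACAAT, the AP-1 motif TGACTCA, the cyclic AMP response motif TGACGTCA, the TEAD motif GGAATG and the CArG box of serum response factor. The *Cck* promoter held CACGTG 66 to 61 bases before the start, a motif present in 6.02% of 32851 promoter windows of 250 bases. The *Nrtn* promoter held GGGCGG 86 to 81 bases before the start, a motif present in 32.7% of them. No motif of the set was found in the other two, and no motif was shared by any pair of the 4 promoters. Their GC content was 60.0% for *Cck*, 46.8% for *Pcp4*, 64.8% for *Nrtn* and 50.4% for *Mia*, beside a median of 52.4% over all promoters.

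The cells fell into 26 clusters, which were gathered into 14 classes by markers of each cell type. The 6 genes and their partner genes, apart from the marker *Penk*, were left out of the clustering features. The MEC-like class held 942 cells (339, 327 and 276). All 6 MEC markers (*Krt14*, *Krt5*, *Trp63*, *Cnn1*, *Acta2*, *Oxtr*) were detected in it, with a summed level of 6379 to 7676 CPM. Markers of other types in MEC-like cells summed to 929 to 2531 CPM for acinar cells, 366 to 416 CPM for ducts and 296 to 504 CPM for fibroblasts. They summed to 20.0 to 47.0 CPM for mural cells, 13.3 to 30.5 CPM for endothelium and 0 to 5.86 CPM for glia, and the mural markers *Pdgfrb*, *Des* and *Kcnj8* were at 0. The mural-like class held 148 cells (50, 45 and 53). Its 7 mural markers summed to 2162 to 6714 CPM, and *Krt14*, *Krt5*, *Trp63* and *Oxtr* were at 0 there, while its *Acta2* and *Cnn1* brought the MEC list to 3200 to 6344 CPM. The parenchymal-like fibroblasts, 1882 cells named from *Penk*, *Crabp1* and *Cxcl14*, had 3482 to 3975 CPM of those 3 genes and 5.10 to 9.35 CPM of the MEC list. Duct-like cells formed a *Wfdc2*-led cluster and a *Krt17*-led cluster, and other epithelial classes were acinar-like cells, *Ltf*+-like cells and an unnamed cluster led by *Chia1*. The MEC list summed to 2079 to 3303 CPM in the *Wfdc2*-led and 2691 to 3548 CPM in the *Krt17*-led cluster, with *Oxtr* alone at 0 in each.

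*Cck* was nearly confined to MEC-like cells, where its level in the 3 libraries was 1765, 1942 and 2069 CPM (1926 ± 153, n = 3). The class held 4157 of its UMIs, 98.0% of the total, and no library of another class came near these values. The *Krt17*-led duct cells came next, with 5.79, 13.2 and 18.7 CPM from 15 UMIs. Mural-like cells had 0, 26.4 and 10.8 CPM from 3 UMIs, so the order of these classes below MEC-like cells could not be set. No other class had a mean above 1.78 CPM, and acinar-like cells had 0.365, 0.270 and 0.239 CPM. Within a library, the level in MEC-like cells was 1952 to 6501 times that in all other cells. These other cells include acinar-like cells, where tear products lower the CPM of *Cck*. When totals were taken without the tear-product and mitochondrial UMIs, the ratio was smaller in each library. The means were then 3531 CPM in MEC-like cells and 2.38 CPM in all other cells, beside 1926 and 0.614 CPM with all UMIs.

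*Pcp4*, the calmodulin regulator, was as restricted. Its level in MEC-like cells was 512, 481 and 341 CPM (445 ± 91.4, n = 3), lowest in male library 2. The class held 1046 of its UMIs, or 98.1%, and 20 UMIs lay in the other cells kept after removal of doublets. Its mean was at most 0.464 CPM in each of the other 13 classes, none of which overlapped MEC-like cells, and it reached 3.103 CPM in *Cxcl13*-led fibroblast-like cells when no doublets were removed. In mural-like cells, the other contractile class, it had 0 UMIs in all 3 libraries, which allows a level of up to 17.9, 39.5 and 32.4 CPM (3 counts per library). The MEC-like level was above this limit in each library. Intervals and limits here cover counting error only.

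*Nrtn*, the GDNF-family ligand, had its highest level in MEC-like cells and a second tier in ducts. In MEC-like cells it was at 239, 221 and 270 CPM (244 ± 24.7, n = 3), which was 50.9% of its UMIs (534). In *Krt17*-led duct cells it was at 45.6, 92.3 and 68.4 CPM (68.8 ± 23.4, n = 3). *Ltf*+-like cells, the epithelial cells that make lactotransferrin, had 23.9, 91.0 and 63.5 CPM (59.5 ± 33.7, n = 3), and these values overlapped those of the *Krt17*-led duct cells. *Wfdc2*-led duct cells followed with 17.4, 18.4 and 21.5 CPM (19.1 ± 2.13, n = 3), without overlap with either class above them. The *Chia1*-led cluster had a mean of 8.10 CPM and acinar-like cells 1.08 CPM. With totals taken without tear-product and mitochondrial UMIs, these means were 39.0 and 7.41 CPM, beside 38.5 CPM in *Wfdc2*-led duct cells. The place of the *Chia1*-led cluster below those duct cells thus depended on the totals used. The acinar-like values (0.298, 1.59 and 1.35 CPM) were below those in barcodes of over 500 UMIs not called as cells (0.857, 1.72 and 1.60 CPM). Tear products took 78.2, 86.7 and 86.3% of the UMIs in those barcodes. The comparison thus cannot tell whether acinar-like cells express *Nrtn*, which was not tested. Every non-epithelial class had at most 7 of its UMIs, and *Cxcl13*-led fibroblast-like cells had none.

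*Ntrk3*, the neurotrophin-3 receptor, was at 471, 244 and 272 CPM in MEC-like cells (329 ± 123, n = 3), with 825 UMIs or 67.2% of its total. *Krt17*-led duct cells had 71.6, 49.5 and 18.7 CPM (46.6 ± 26.6, n = 3) and *Wfdc2*-led duct cells 46.8, 47.9 and 12.9 CPM (35.9 ± 19.9, n = 3). These duct clusters overlapped each other and not the MEC-like cells. Mural-like cells had 17.9, 13.2 and 10.8 CPM (14.0 ± 3.60, n = 3), which rested on 5 UMIs. In fibroblast-like cells the libraries stood apart: the female library had 103 UMIs, or 19.0 CPM, and the male libraries had 0 and 2 UMIs. At the female level, 36.1 UMIs would fall among the male fibroblast-like cells. The antisense gene *Gm9885* had a mean of 58.6 CPM in MEC-like cells, and its part in the counts of *Ntrk3* was not tested.

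*Mia*, the secreted fibronectin-binding protein, was the member whose level in MEC-like cells differed most between libraries. There it was at 685, 151 and 132 CPM (323 ± 314, n = 3; 95% Poisson intervals 639 to 734, 122 to 186 and 99.4 to 171). The female value was 4.84 times the mean of the male values, and the intervals of the male libraries overlapped each other and not that of the female library. When totals were taken without the tear-product and mitochondrial UMIs, the values were 964, 308 and 264 CPM and the ratio was 3.37. The highest count of *Mia* in 1 MEC-like cell was 28 UMIs in the female library and 4 in each male library. The class held 965 UMIs, or 59.4%, but 147 of 443 UMIs in the male libraries alone. *Krt17*-led duct cells had 72.3, 52.8 and 12.4 CPM, *Ltf*+-like cells 10.1, 39.3 and 29.0 CPM and *Wfdc2*-led duct cells 28.3, 14.7 and 34.4 CPM, 3 classes that overlapped one another. Acinar-like cells had 276 of its UMIs (17.0%) at 3.88, 2.53 and 2.51 CPM, below the 5.40, 3.68 and 3.42 CPM in barcodes of over 500 UMIs that were not called as cells. Tear products took 78.2, 86.7 and 86.3% of the UMIs in those barcodes. The comparison thus cannot tell whether acinar-like cells express *Mia*, which was not tested. Mural-like cells had no UMI of *Mia*.

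*Mdk*, the midkine gene, had overlapping levels in stromal cells and MEC-like cells. Parenchymal-like fibroblasts had 288, 107 and 84.6 CPM (160 ± 112, n = 3) and 1169 UMIs. MEC-like cells had 168, 105 and 120 CPM (131 ± 33.2, n = 3) and 315 UMIs. The classes overlapped: the fibroblast value was above the MEC-like value in the female library, nearly level with it in male library 1 and below it in male library 2. Without the female library, MEC-like cells came first, at 112 against 95.9 CPM. *Cxcl13*-led fibroblast-like cells had 111, 54.1 and 62.2 CPM (75.7 ± 30.6, n = 3). All fibroblast-like clusters together had a mean of 126 CPM, just under that of MEC-like cells. Adventitial-like fibroblasts, which lie around vessels, had a mean of 10.1 CPM, so the fibroblast clusters did not share a single level. Outside fibroblast-like and MEC-like cells the highest mean was 16.4 CPM, in *Krt17*-led duct cells, and mural-like cells had 2 UMIs.

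**Figure D1:**
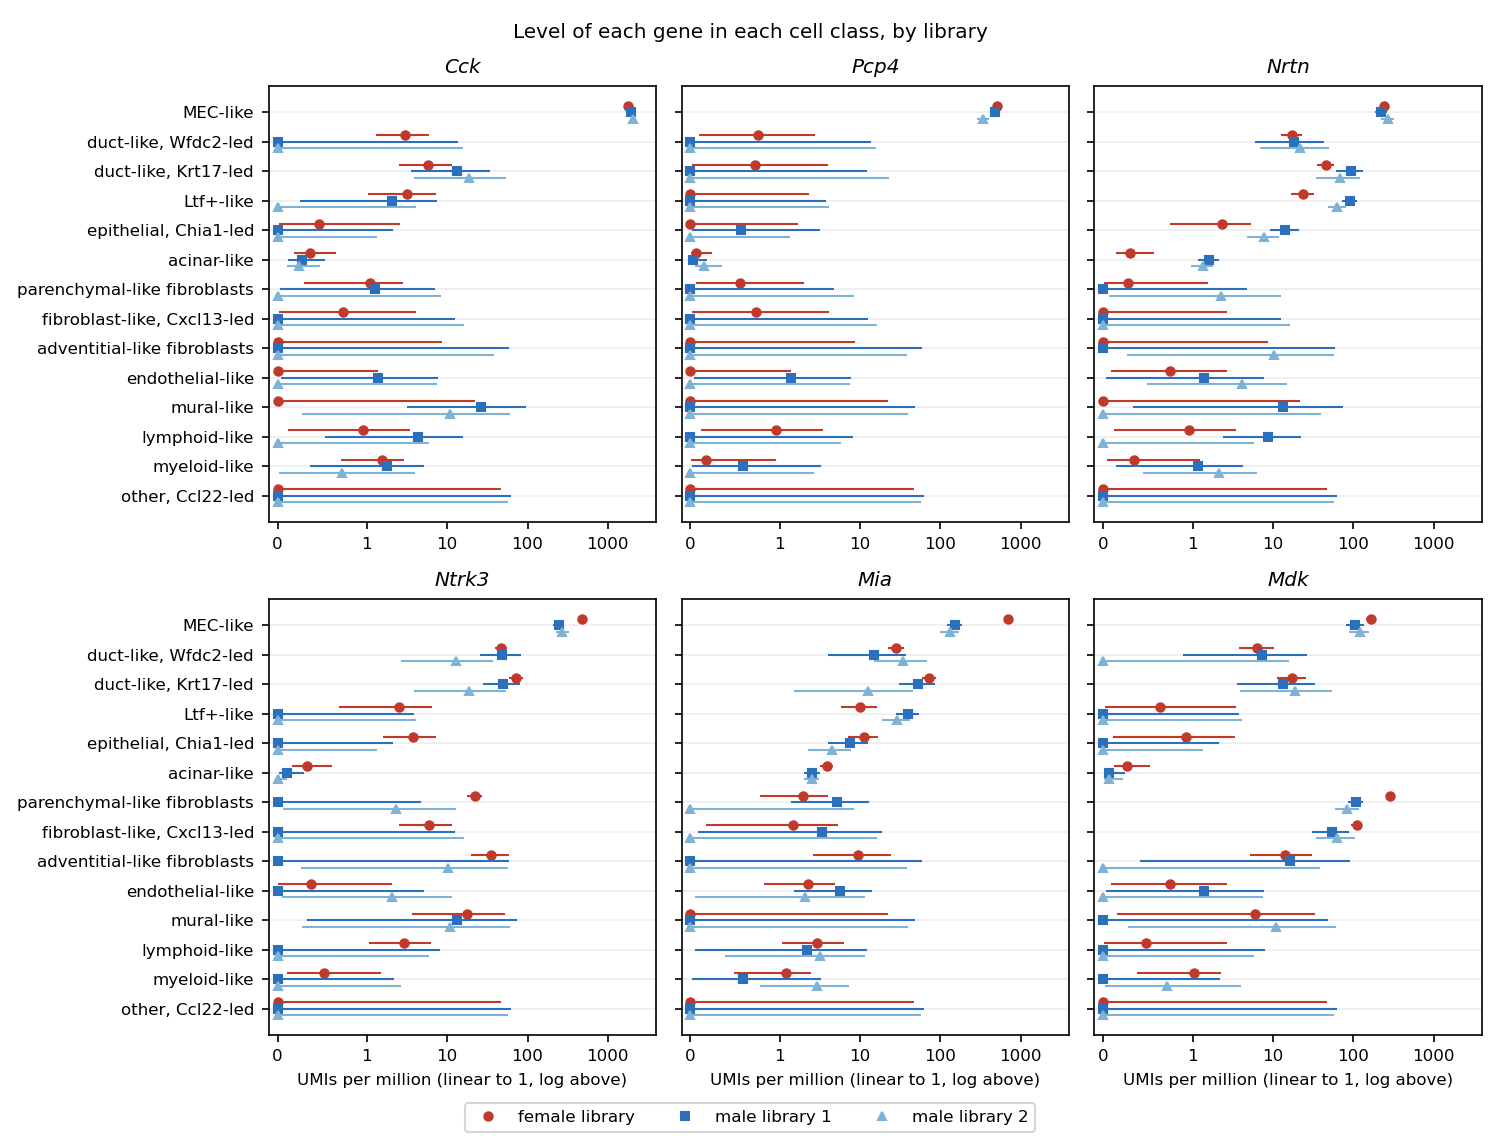
Level of each member in the 14 cell classes (CPM, on an axis that is linear to 1 and logarithmic above, 1 panel per gene), with 1 marker per library and bars for the exact Poisson 95% interval, which covers counting error only. *Cck* and *Pcp4* stand far above every other class in MEC-like cells, *Nrtn* and *Mia* have a lower tier in duct-like and Ltf+-like cells, *Ntrk3* has one in duct-like cells, and the levels of *Mdk* in parenchymal-like fibroblasts (84.6 to 288 CPM) and MEC-like cells (105 to 168 CPM) overlap.

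The share of MEC-like cells with at least 1 UMI was compared after each cell was thinned to 1000 UMIs, which left out 2, 7 and 32 shallower cells and kept 337, 320 and 244. *Cck* was detected in 70.0, 76.2 and 77.9% of thinned cells (90.3, 85.3 and 85.9% unthinned). *Pcp4* was detected in 34.4, 37.5 and 29.9% (64.3, 49.5 and 35.1% unthinned) and *Nrtn* in 22.6, 18.4 and 23.0% (50.4, 31.2 and 31.2% unthinned). For these 3 genes the intervals of the thinned shares overlapped between libraries, whereas the unthinned shares of *Pcp4* and *Nrtn* were highest in the deeper female library. *Ntrk3* was detected in 36.5, 22.2 and 27.9% of thinned cells (74.3, 33.3 and 34.1% unthinned). *Mia* was detected in 41.2, 14.7 and 14.3% (68.7, 23.2 and 16.7% unthinned), with a 95% Clopper-Pearson interval of 35.9 to 46.7% in the female library and upper bounds of 19.0 and 19.4% in the male libraries. *Mdk* was detected in 13.6, 8.75 and 13.5% (41.0, 16.5 and 16.3% unthinned). The female library was thus apart from the male libraries for *Mia* in the share of cells as well as in the level. Thinning matched total UMIs alone, and tear products took a smaller part of them in the female library, so the depth left for other genes was not equal. In parenchymal-like fibroblasts the thinned share for *Mdk* was 24.4, 10.9 and 11.5%. Lymphoid-like cells, which should lack these genes, had thinned shares of at most 1.05% for any member, at a median of 2312, 1355 and 1033 UMIs per cell beside 3431, 1742 and 1364 in MEC-like cells.

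**Figure D2:**
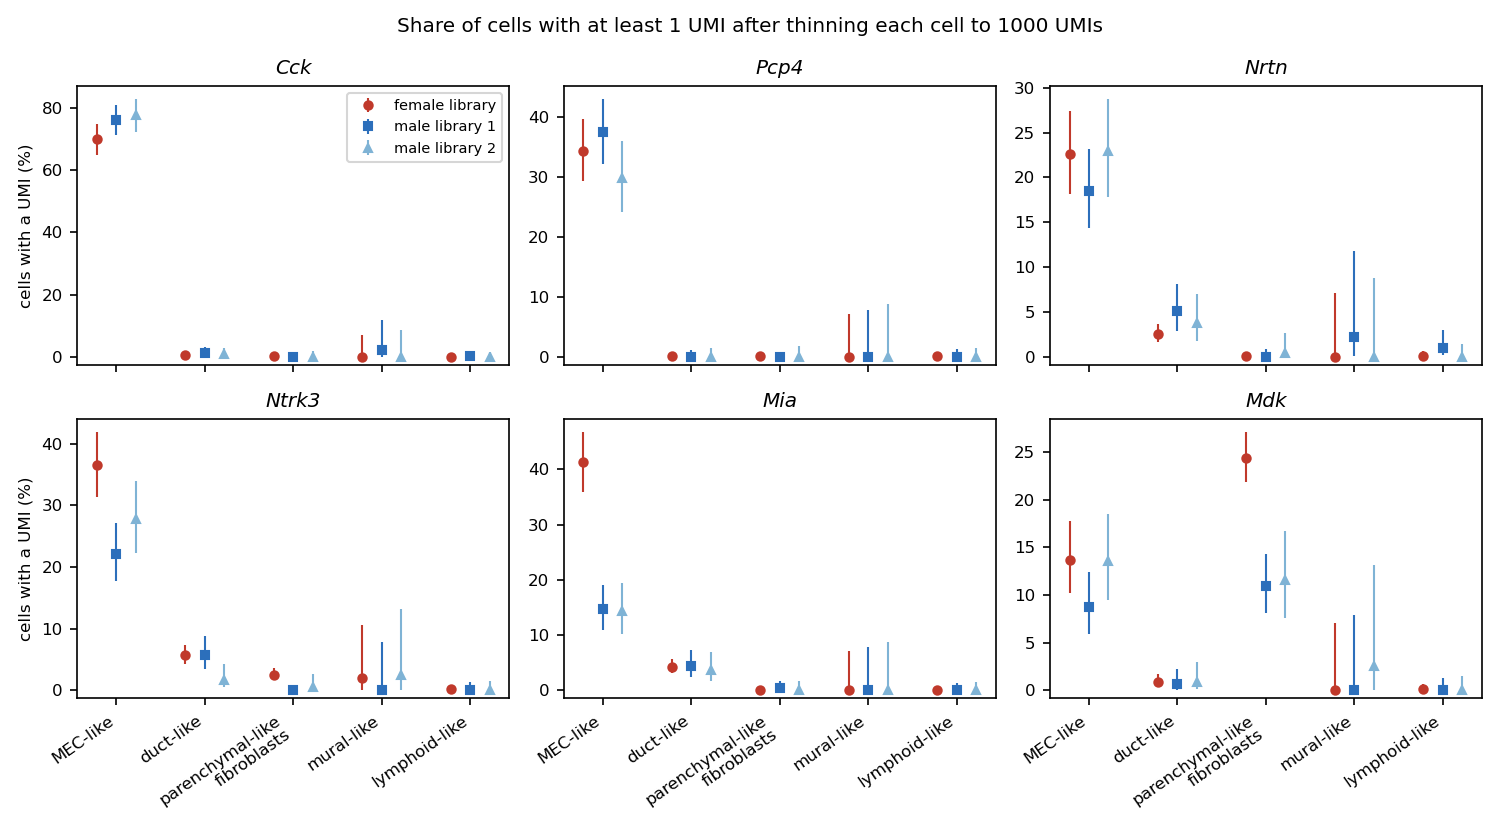
Share of cells with at least 1 UMI of each member (percent, after thinning to 1000 UMIs per cell) by cell class and library, with exact binomial 95% intervals. In MEC-like cells the *Mia* share is 41.2% in the female library and 14.7 and 14.3% in the male libraries, while the 3 intervals for *Nrtn* overlap.

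Most MEC-like cells held transcripts of more than 1 member. Among 901 thinned cells, 81 (8.99%) had no member, 236 (26.2%) had 1, 325 (36.1%) had 2, 177 (19.6%) had 3, 68 (7.55%) had 4, 13 (1.44%) had 5 and 1 cell had all 6. In all, 584 cells (64.8%) had 2 or more, with 73.9, 58.1 and 61.1% in the 3 libraries. *Cck* was found in 75.9, 82.5 and 84.9% of the cells with *Pcp4* and in 67.0, 72.5 and 74.9% of those without it, the same direction in each library. For *Mia* and *Ntrk3* the direction varied: *Ntrk3* was found in 33.1, 19.1 and 31.4% of the cells with *Mia* and in 38.9, 22.7 and 27.3% of those without. Cells of a library share its free RNA and handling, and no test was made over cells.

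**Figure D3:**
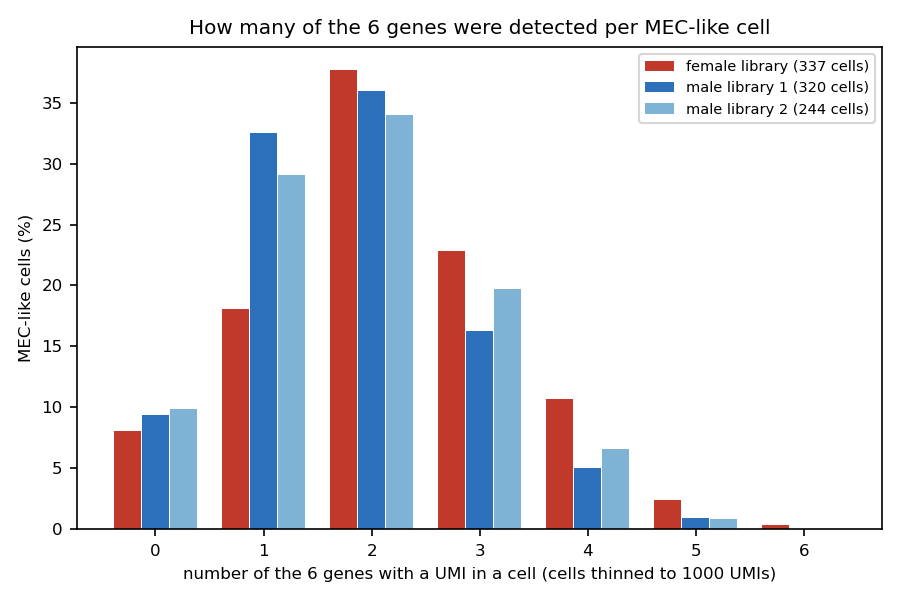
Share of MEC-like cells (percent) with 0 to 6 of the members detected after thinning to 1000 UMIs, by library. The most common number is 2 in each library (37.7, 35.9 and 34.0%), and 10.7, 5.00 and 6.56% of the cells have 4.

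The likeness of expression patterns was measured as Pearson's r of log2(CPM + 10) over the 14 classes, among 12016 genes. For *Cck* the closest genes were *Wnt6* (r = 0.986), *Sbpl* (0.986) and *Frmpd1os* (0.985), and the closest member was *Pcp4* (0.980). For *Pcp4* they were *Csn3* (1.000), *Tmem59l* (1.000) and *Sbpl* (0.998), genes that were also near 0 outside MEC-like cells. *Nrtn* was most like *Mia* (0.966), *Klc3* (0.953) and *Irx2* (0.945), and *Mia* most like *Plekhg6* (0.972), *Klc3* (0.970) and *Nrtn*. Both of these members paired a MEC-like peak with a tier in duct-like and *Ltf*+-like cells, whereas *Ntrk3* had a duct tier but a mean of 0.839 CPM in *Ltf*+-like cells. *Ntrk3* was most like *Trpm3* (0.962), *Sdk2* (0.961) and *Trnp1* (0.949). *Mdk* was most like *Pknox2* (0.971), *Ptprd* (0.960) and *Gas1* (0.959), genes present in both MEC-like cells and parenchymal-like fibroblasts, and its r with the other 5 members was 0.304 to 0.560. These r values describe 14 points that share libraries and depth.

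The members and 98 partner genes (receptors, sister ligands, processing enzymes and binding partners, in 8 lists) were followed through 4 comparisons between cell classes, each on UMIs summed per library and class with edgeR's quasi-likelihood test. Each library was a block in the fit, and p-values were adjusted by the Benjamini-Hochberg method over the whole table of tested genes. The log2 fold changes below use TMM scaling, which puts the median gene near 0. Under total UMIs the median gene would lie at 2.16 for MEC-like against other epithelial cells, 2.71 for duct-like against acinar-like cells, 0.32 for fibroblast-like and −0.11 for mural-like against other non-epithelial cells, where TMM put it at −0.09, −0.03, −0.07 and −0.42. The share of calls that were higher rose accordingly from 46.3 to 97.6%, from 49.4 to 98.4%, from 44.8 to 66.2% and from 28.4 to 40.9%. Only comparisons without MEC-like cells were used to test members.

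Duct cells had more *Nrtn*, *Ntrk3*, *Mdk* and *Mia* than acinar cells. *Nrtn* was at 27.0, 57.4 and 40.7 CPM in duct-like cells (both clusters together) and 0.298, 1.59 and 1.35 CPM in acinar-like cells, with no overlap. It was higher by 2.83 on the log2 scale (SE 0.29, adjusted p = 8.21e-06). *Ntrk3* was at 55.3, 48.7 and 15.2 CPM against 0.331, 0.101 and 0 CPM, a log2 fold change of 5.31 (SE 0.52, adjusted p = 5.23e-06). *Mdk* was at 10.2, 10.4 and 7.62 CPM against 0.265, 0.0676 and 0.0599 CPM, a log2 fold change of 3.24 (SE 0.70, adjusted p = 2.24e-03). The duct libraries were above all acinar libraries for these 3 genes. *Mia* was at 43.4, 34.8 and 25.4 CPM against 3.88, 2.53 and 2.51 CPM, a log2 fold change of 0.77 (SE 0.28, adjusted p = 0.0366). The call for *Mia* was lost with DESeq2 (adjusted p = 0.106), without male library 1 (0.343) and without male library 2 (0.0977). *Cck* had 23 UMIs in duct-like cells, at 3.97, 6.96 and 7.62 CPM against 0.365, 0.270 and 0.239 CPM, and its log2 fold change of 1.37 (SE 0.67) did not pass (adjusted p = 0.118), although it did under total UMIs, a stricter mitochondrial limit, no removal of doublets and without the female library (adjusted p = 6.90e-09, 0.0142, 0.0167 and 0.00335). *Pcp4* had too few UMIs to be tested. *Ntrk3* and *Mdk* had 13 and 12 UMIs in acinar-like cells. These genes and *Cck* could pass the count filter only through duct-like cells, and *Nrtn* could not pass through acinar-like cells alone. Their tests thus add little to the values themselves, and nothing is read from the number of members called. Of the 10424 genes tested, 46.1% were called, 22.8% higher and 23.3% lower.

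Fibroblast-like cells, all clusters together, carried *Mdk* at 222, 88.5 and 67.2 CPM, against 0.924, 0.332 and 0.750 CPM in the other non-epithelial cells. Every fibroblast value was above every value of the other cells, and 1357 of the 1370 non-epithelial UMIs of *Mdk* were in fibroblast-like cells. The log2 fold change was 7.28 (SE 0.26, adjusted p = 8.85e-10) and was 6.22 to 7.68 in the 11 alternatives. With so few UMIs in the other cells, *Mdk* could pass the count filter only through fibroblast-like cells, so the test adds little to the values themselves. It was the only member with enough counts to be tested there. In this comparison 53.3% of 9956 genes were called, 23.9% higher and 29.4% lower.

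Mural-like cells, the other contractile cells of the gland, held few UMIs of the members, and their small number limited what could be seen. *Ntrk3* had 3, 1 and 1 UMIs, or 17.9, 13.2 and 10.8 CPM, against 7.03, 0 and 0.900 CPM in the other non-epithelial cells, a log2 fold change of 1.82 (SE 0.94) that did not pass (adjusted p = 0.170). *Mdk* had 1, 0 and 1 UMIs, or 5.96, 0 and 10.8 CPM, against 75.5, 25.0 and 15.6 CPM. Its log2 fold change of −3.22 (SE 0.82) passed (adjusted p = 7.28e-04), but not with DESeq2 (0.0619) or without the female library (0.400). With 2 UMIs in mural-like cells, *Mdk* could pass the count filter only through the other cells, so its test adds little to the values themselves. *Ntrk3* could pass the filter only through mural-like cells. The other cells of this comparison include the fibroblast-like cells that hold nearly all non-epithelial *Mdk*, and it shares them with the comparison above. *Cck* (3 UMIs), *Nrtn* (1 UMI), *Pcp4* and *Mia* (none) were not tested. Of 8358 genes tested, 21.7% were called, 6.15% higher and 15.5% lower.

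In MEC-like against other epithelial cells the members were chosen on this very difference, so their values are given without a test. Other epithelial cells had 0.869, 0.426 and 0.294 CPM of *Cck* and 0.132, 0.0608 and 0.134 CPM of *Pcp4*. They had 4.24, 5.87 and 3.71 CPM of *Nrtn*, 6.46, 0.943 and 0.160 CPM of *Ntrk3*, 8.75, 4.44 and 3.53 CPM of *Mia* and 1.37, 0.243 and 0.134 CPM of *Mdk*. The fitted log2 differences were 9.60 for *Cck*, 9.61 for *Pcp4*, 3.46 for *Nrtn*, 5.63 for *Ntrk3*, 3.28 for *Mia* and 5.85 for *Mdk*, and no library overlapped for any member. Of 11193 genes tested, 30.6% were called, 14.2% higher and 16.5% lower, and nothing is read from the members' count.

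**Figure D4:**
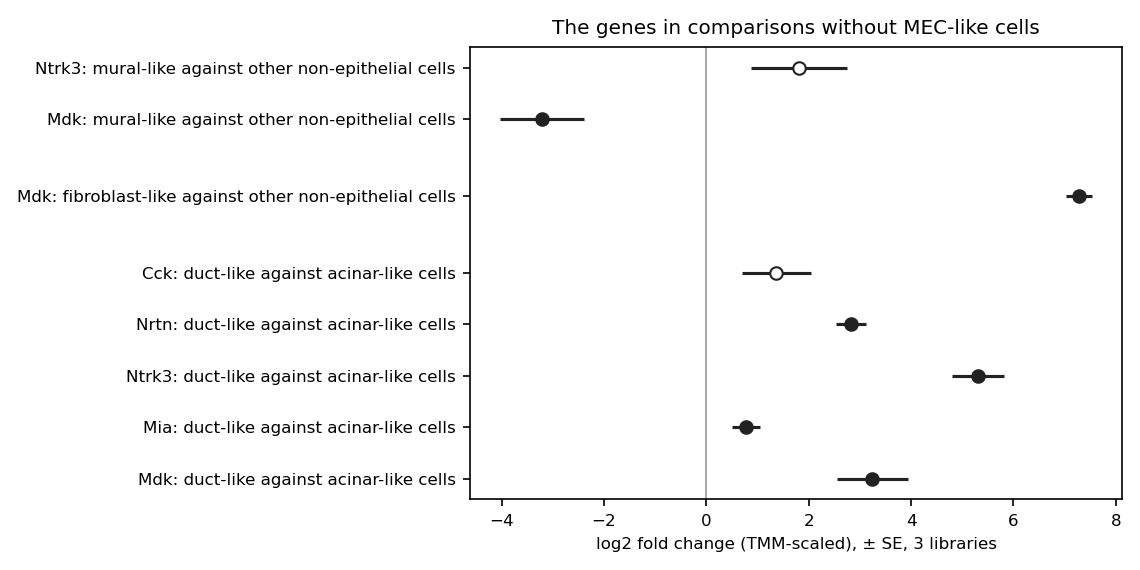
Fitted log2 fold changes of the members in the comparisons without MEC-like cells, for the genes that passed the count filter (edgeR quasi-likelihood test, points with SE bars, 3 libraries), with filled points where the adjusted p is under 0.05. *Mdk* lies at 7.28 in fibroblast-like and at -3.22 in mural-like cells, and *Ntrk3* at 5.31 in duct-like cells, while the open points are *Cck* in duct-like and *Ntrk3* in mural-like cells. Apart from *Mia*, these genes could not pass the count filter without the class where they are higher.

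The receptors and ligands that the members pair with were found in MEC-like cells and in several other classes. *Cckar* and *Cckbr*, the cholecystokinin receptors, had 0 UMIs in all 18344 cells, which allows up to 0.0542, 0.0797 and 0.0727 CPM over a library. *Gfra2*, the co-receptor of neurturin, was at 10.0, 9.98 and 9.39 CPM in MEC-like cells (9.81 ± 0.359, n = 3) from 22 UMIs, with 0 UMIs in all other epithelial cells. *Ret*, the kinase it acts with, had a mean of 0.279 CPM in MEC-like cells and was at 16.8, 16.7 and 14.3 CPM in endothelial-like cells (15.9 ± 1.42, n = 3). In adventitial-like fibroblasts *Ret* was at 7.08, 32.3 and 10.4 CPM (6 UMIs) and *Gfra2* at 2.36, 16.1 and 0 CPM (2 UMIs), which overlapped the endothelial-like *Ret* and the MEC-like *Gfra2*. *Ntf3*, the ligand of TrkC, was at 34.5, 23.7 and 26.7 CPM in *Cxcl13*-led fibroblast-like cells, 20.1, 36.6 and 18.8 CPM in MEC-like cells and 31.6, 22.9 and 20.6 CPM in parenchymal-like fibroblasts, and these classes overlapped. Mural-like cells had *Ntf3* at 23.9, 13.2 and 21.6 CPM (7 UMIs), which overlapped the MEC-like values. MEC-like cells thus held transcripts of both the receptor *Ntrk3* and its ligand, but this was not particular to them. Mural-like cells also had 5 UMIs of *Ntrk3*, and parenchymal-like fibroblasts of the female library had it at 22.0 CPM. *Ngfr*, the p75 neurotrophin receptor, was at 38.2, 8.70 and 15.2 CPM in duct-like cells and 1.62 CPM on average in MEC-like cells. Among the receptors of midkine, *Lrp1* was highest in parenchymal-like fibroblasts (590, 330 and 290 CPM), the class with the highest mean of *Mdk*, and was at 106, 56.5 and 42.3 CPM in MEC-like cells. *Ptprz1* was at 44.8, 13.2 and 31.1 CPM in *Krt17*-led duct cells and 29.3, 23.3 and 21.1 CPM in MEC-like cells, and *Alk* had 1 UMI in all cells. *Ptn*, the sister gene of midkine, was at 44.5, 47.9 and 21.5 CPM in *Wfdc2*-led duct cells and 62.3, 20.9 and 28.6 CPM in endothelial-like cells.

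**Figure D5:**
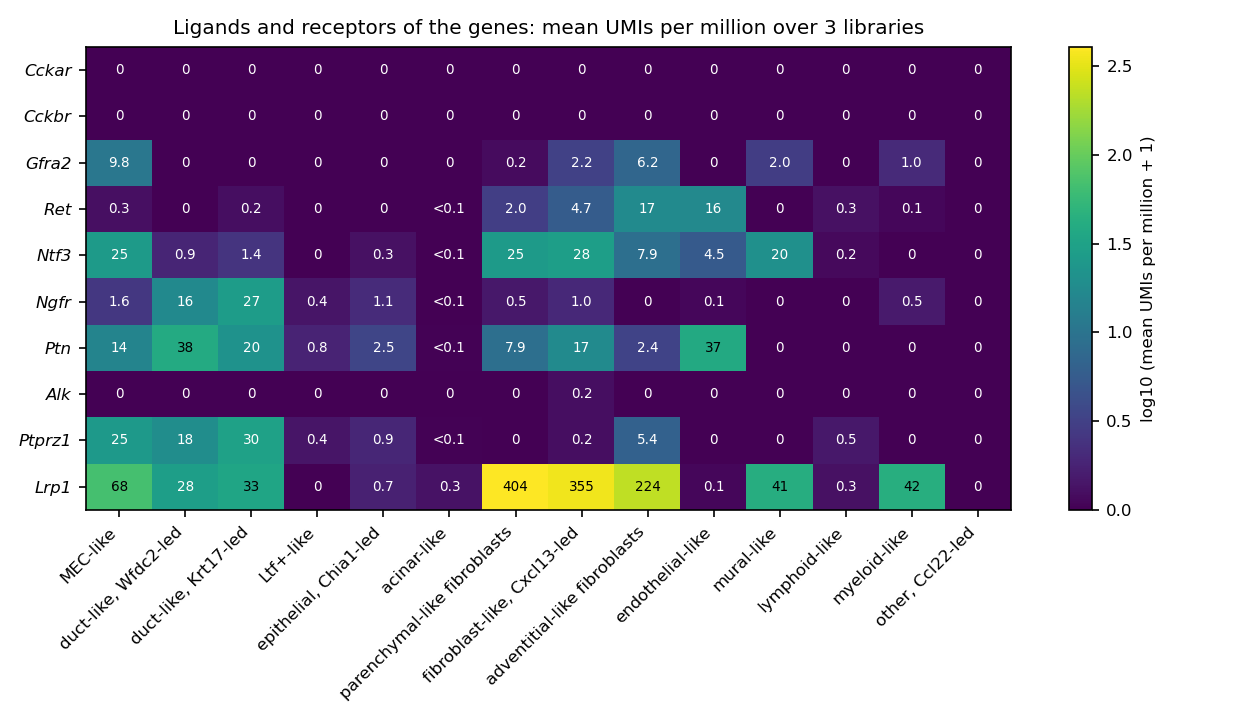
Level of the direct receptors and ligands of the members (numbers give the mean CPM of 3 libraries, and colours the log10 of that mean plus 1) in the 14 cell classes. *Gfra2* is highest in MEC-like cells (9.81 CPM), *Ret* in adventitial-like fibroblasts and endothelial-like cells (16.6 and 15.9 CPM), *Lrp1* in fibroblast-like cells, and *Cckar* and *Cckbr* are at 0 throughout.

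Across the partner lists, 32 of 98 genes were called between MEC-like and other epithelial cells, 25 higher and 7 lower, of 47 with enough counts, and the median log2 fold change of the tested genes was 1.32 against −0.09 for all genes. The lists were chosen with earlier results known, and some genes passed the count filter only through the class where they are high, so here and in the other comparisons these medians and counts describe the lists and support nothing. Here and in the other comparisons, counts by list are out of the genes listed, of which fewer had enough counts to be tested. In this comparison those tested were 10 nerve-directed cues, 6 neurotrophin genes, 10 calmodulin genes, 12 midkine and pleiotrophin partners and 4 cholecystokinin genes. Over all genes tested, 14.2% were called higher and 16.5% lower. Of the 18 other nerve-directed cues, 7 were higher and 1 lower. *Nrg1*, a neuregulin, was at 264, 183 and 223 CPM in MEC-like cells and at most 0.764 CPM in other epithelial cells (log2 fold change 6.48, SE 0.28, adjusted p = 4.68e-06). *Nrg2* (3.61, adjusted p = 1.35e-04), *Cntf* (4.53, 3.38e-03) and *Sema3b* (3.42, 5.99e-03) were also higher, while *Ntn1* was lower (−3.60, 0.0275), a call lost under total UMIs (0.297), with DESeq2 (0.0718) and without male library 1 (0.0805) or 2 (0.0775). Of the 9 neurotrophins and receptors, 4 were higher and 1 lower: *Ntf3* (5.36, 3.85e-03) and *Ntrk2* (5.06, 1.08e-04), the receptor of brain-derived neurotrophic factor, rose and *Sort1*, which sorts neurotrophin precursors, fell (−3.45, 7.23e-05). *Ngfr* did not pass (−2.29, 0.107), although it did without male library 2 (0.0487). Of the 15 calmodulin genes, 4 were higher and none lower, led by *Mylk*, the myosin light chain kinase (1505, 826 and 942 CPM against 15.5, 2.71 and 1.87 CPM, log2 fold change 5.63, adjusted p = 3.45e-05).

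In the same comparison, 6 of the 15 midkine and pleiotrophin partners were higher, among them *Lrp1* (3.37, adjusted p = 1.49e-03) and *Ptprz1* (2.44, 0.0372), and the integrin *Itga4* was lower (−3.49, 0.0314), whereas *Ptn* did not pass (1.10, 0.176) except under total UMIs (1.10e-03) and without the female library (1.76e-03). The call for *Ptprz1* was lost without the replicate block (0.131) and without male library 2 (0.145). That for *Itga4* was lost under total UMIs (0.304), with DESeq2 (0.11), without the replicate block (0.151) and without male library 2 (0.0591). Of the 11 cholecystokinin signalling and processing genes, 2 were higher and 1 lower, the amidating enzyme *Pam* (−1.24, 4.30e-03), at 131, 59.9 and 54.0 CPM against 50.5, 33.6 and 30.6 CPM. *Pam* was thus above the other epithelial cells in CPM and below them in the TMM fit, and the same held for *Mia3* (−1.77, 4.76e-04). *Mia2* (−1.80, 1.24e-03) was also called lower, and all 3 turned to higher under total UMIs. Of the 9 GDNF family genes *Gfra2* alone had enough counts, all of them in MEC-like cells, so that it could only be called higher. Of the 15 other neuropeptide genes, *Tac1* alone was tested, with 0 UMIs in MEC-like cells and 1.48, 2.01 and 1.71 CPM elsewhere (adjusted p = 9.34e-03). The limit of 3 counts for a 0 lies above the level elsewhere in each library (2.92 CPM over the male libraries together). The zeros thus do not set MEC-like cells below the others in CPM.

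Between duct-like and acinar-like cells, 29 partner genes were higher and 9 lower of 46 tested, with a median of 2.34 against −0.03 for all genes. Over all genes tested, 22.8% were called higher and 23.3% lower. The list of midkine and pleiotrophin partners had 11 higher and 1 lower of 15. *Ptn* was at 36.7, 36.5 and 17.8 CPM against at most 0.0663 CPM (log2 fold change 6.93, SE 0.58, adjusted p = 1.57e-06), and *Ptprz1* (6.46, 6.73e-06), *Gpc2* (5.74, 6.21e-04) and *Lrp1* (3.62, 2.74e-05) were higher too. Nerve-directed cues had 9 higher and 1 lower of 18, led by *Slit2*, an axon repellent, at 85.1, 40.0 and 38.1 CPM against at most 0.166 CPM (6.83, adjusted p = 4.98e-07), with *Sema3d* (6.29, 2.20e-05) and *Sema3f* (5.78, 1.01e-05). *Sema3e* had 48 UMIs in duct-like cells and 0 in acinar-like cells. Neurotrophin genes had 4 higher and 1 lower of 9, with *Ngfr* the furthest (7.46, adjusted p = 3.49e-06) and *Sort1* lower (−2.57, 2.94e-06). The lists of calmodulin genes (3 higher, 3 lower of 15), MIA family genes (1 and 2 of 6) and cholecystokinin processing genes (1 and 1 of 11) were mixed, and no GDNF or other neuropeptide gene had enough counts. Among the lower genes, *Sort1*, *Mia3*, *Mia2*, *Ntn1*, *Pam*, *Sdc3* and *Camk2d* turned to higher under total UMIs. The call for *Ntn1* was also lost with DESeq2 (adjusted p = 0.264), without the replicate block (0.12) and without the female library (0.726), and that for *Sdc3* with under 5% mitochondrial UMIs (0.0507) and without male library 1 (0.0619) or 2 (0.145).

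In fibroblast-like cells, 22 partner genes were higher and 16 lower of 48 tested, with a median of 0.40 against −0.07 for all genes. Over all genes tested, 23.9% were called higher and 29.4% lower. Nerve-directed cues had 7 higher and 2 lower of 18: *Slit3* was at 135, 99.0 and 89.6 CPM against at most 1.87 CPM (log2 fold change 6.27, SE 0.27, adjusted p = 3.70e-09), and *Sema3a* (6.48, 7.73e-07), *Sema3c* (4.46, 1.53e-07) and *Sema3b* (4.25, 4.91e-04) were higher. *Penk*, the enkephalin precursor, was at 231, 856 and 452 CPM against 3.14 to 6.37 CPM (6.20, adjusted p = 2.42e-09). However, it is one of the markers that named the parenchymal-like cluster, and it was not left out of the clustering features. Neurotrophin genes had 3 higher and none lower of 9, *Ntrk2* (5.57, 9.23e-09) and *Ntf3* (3.65, 5.76e-07) among them. The midkine partners split, with 3 higher and 5 lower of 15. *Lrp1* (3.63, 3.48e-09) and *Sdc2* (4.72, 1.09e-08) were higher, *Itga4* (−6.39, 5.30e-08), *Itga6* (−5.23, 4.76e-07) and *Sdc3* (−2.69, 3.48e-07) were lower, and *Ptn* did not pass (−0.21, 0.628). *Fn1*, fibronectin, a partner of MIA, was higher (5.43, 2.88e-08), in a list with 3 higher and 2 lower of 6. Calmodulin genes had 2 higher and 5 lower of 15, with *Pcp4l1*, the paralogue of *Pcp4*, at 2 UMIs in fibroblast-like cells (−8.53, 2.59e-09) and *Nrgn* at 0. Cholecystokinin processing genes had 2 higher and 1 lower of 11, other neuropeptides 2 and 1 of 15 (*Calca* lower, −5.38, 7.56e-06), and *Ret* did not pass (−0.33, 0.496).

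In mural-like cells, 14 partner genes were higher and 11 lower of 41 tested, with a median of −0.11 against −0.42 for all genes. Over all genes tested, 6.15% were called higher and 15.5% lower. Of the 9 neurotrophin genes, 3 were higher and none lower. Among them, *Bdnf*, brain-derived neurotrophic factor, was at 11.9, 65.9 and 43.2 CPM (11 UMIs) against at most 0.490 CPM (log2 fold change 6.72, SE 0.88, adjusted p = 6.97e-13). *Sort1* (2.87, 6.67e-07) was higher too, and *Ntf3* did not pass (0.96, 0.436). *Pcp4l1*, the paralogue of *Pcp4*, was at 537, 211 and 141 CPM in mural-like cells against 62.6, 32.1 and 21.3 CPM (2.56, adjusted p = 1.74e-15). In MEC-like against other epithelial cells, *Pcp4l1* was tested and did not pass. With *Mylk* (4.74, 4.49e-67) and *Nrgn* (3.49, 1.96e-10), 5 of 15 calmodulin genes were higher and none lower. *Cspg4* (3.84, 7.52e-13) and *Ntn4* (3.37, 2.24e-12) were higher. Midkine partners had 3 higher and 5 lower of 15, with *Itga6* (−4.17, 1.37e-04), *Sdc3* (−2.88, 3.48e-03), *Sdc4* (−2.65, 2.62e-09) and *Lrp1* (−1.92, 1.89e-05) lower. *Penk*, *Sema3c* and *Itga5* had 0 UMIs in mural-like cells, and *Fn1* (−3.40, 2.66e-08) and *Tpst2* (−2.50, 0.0243) were lower. Without the female library the calls for *Sort1* (adjusted p = 0.25), *Nrgn* (0.118), *Itga6* (0.136), *Sdc3* (0.229) and *Tpst2* (0.378) were lost. Those for *Sdc3* (0.0888 and 0.0617) and *Tpst2* (0.182 and 0.0738) were also lost with DESeq2 and with under 5% mitochondrial UMIs, and without male library 1 (0.0756 and 0.104), and that for *Tpst2* under total UMIs (0.0781) and without male library 2 (0.192). The remaining lists had 1 higher and 2 lower of 11 for cholecystokinin processing, 1 and 2 of 6 for the MIA family, 1 and 1 of 18 for nerve-directed cues, none and 1 of 15 for other neuropeptides, and no GDNF family gene with enough counts.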

How the data were processed

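Single-cell RNA was counted in 3 LG libraries (1 female, 2 male, each a pool of 3 mice). The authors deposited counts, whole-number UMI counts per gene and barcode as Cell Ranger writes them, with no correction for free RNA and no cell names. Cell Ranger 6.1.2 and mm10 are named in the submitters' processing notes, and the annotation release is not given in the sources used here. The authors' DecontX correction and doublet callers were not run.

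From these counts, called barcodes were kept if they held over 500 UMIs, over 200 genes and under 15% mitochondrial UMIs, and scrublet (scanpy 1.11.5) removed doublets at 0.8% per 1000 barcodes (646, 287 and 315). Kept UMIs were 55390678, 37641576 and 41269825 per library. Seurat 5.3.0 (SCTransform, CCA, 3000 features, 30 dimensions, resolution 1) clustered the cells in R 4.3.3, with 349 genes left out of the features, including the members and their partners apart from *Penk*. Classes were named from markers. UMIs were summed per library and class, expressed as CPM, and tested with edgeR 4.0.16 (filterByExpr, TMM, quasi-likelihood, library as block, calls at adjusted p under 0.05), with 3 libraries per arm. The arms of a library come from the same cell suspension, which is why the library number pairs them. With 3 pooled libraries, p-values do not measure the spread between animals. The fit also borrows the spread across genes, so a small p-value does not measure how far the libraries differ for that gene. The scripts were tested on simulated data. DESeq2 1.42.0 and the other settings of the closing section were alternatives. Intervals are exact Poisson or Clopper-Pearson at 95%, limits for 0 use 3 counts, and both cover counting error only.

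The 6 members and the 8 partner lists were chosen with earlier results of these data known. Named partner genes were, in each comparison, up to 8 called genes per direction with the largest log2 fold change, and the direct receptors or ligands of the members. Some genes that this rule picks are not reported here, though they are in the counts. For likeness, the 3 genes with the highest r among genes with at least 100 UMIs were named. Genes at 0 UMIs in 1 arm are given by their values, without a fold. No deposited column belonged to another series.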

Additional observations from a re-analysis of the deposited data

Results flagged for a closer look

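Barcodes with over 500 UMIs that were not called as cells (70227 in females, 61851 and 58183 in the male libraries 1 and 2, given in this order throughout, with a median of 1041, 1048 and 746 UMIs) entered no comparison above, and each member was present in them above the limit that a count of 0 allows. *Cck* was at 2.45, 1.72 and 1.76 CPM there, and *Pcp4* at 0.993, 0.676 and 0.371 CPM. *Nrtn* was at 0.857, 1.72 and 1.60 CPM and *Ntrk3* at 0.508, 0.166 and 0.0742 CPM. *Mia* was at 5.40, 3.68 and 3.42 CPM, and *Mdk* at 0.575, 0.276 and 0.241 CPM. For *Mia*, 27.9, 53.3 and 49.3% of the UMIs in all barcodes lay outside called cells, against 9.86, 12.4 and 12.8% for *Cck* and 59.2, 65.4 and 56.4% for all genes together.

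In duct-like against acinar-like cells, *Sort1* and *Sdc3* moved one way in the female library and the other way in both male libraries, and this difference between libraries was not tested. The CPM of *Sort1* was 5.59 higher in duct-like cells of the female library and differed by −0.452 on average in the male libraries. For *Sdc3* the difference was 3.47 CPM in the female library and −2.48 CPM on average in the male libraries.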

How the results depend on the processing

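MEC-like cells kept the first place for *Cck*, *Pcp4*, *Nrtn*, *Ntrk3* and *Mia* in all 10 alternatives for levels, and for *Mdk* they moved from place 2 to place 1 without the female library. Their mean CPM moved beyond its SD when tear-product and mitochondrial UMIs were left out of the totals (*Cck* 3531, *Pcp4* 794, *Nrtn* 443, *Ntrk3* 569, *Mdk* 230), when free RNA was subtracted with the profile of barcodes of 10 to 100 UMIs (4289, 963, 537, 683 and 278 in that order, and *Mdk* in parenchymal-like fibroblasts 307) and with the profile of uncalled barcodes over 500 UMIs, chosen after seeing the data (3882, 870, 485.5, 620, 251 and 281). Leaving out 1 library at a time gave 1854 to 2006 CPM for *Cck*, 410.6 to 496.5 for *Pcp4*, 230.3 to 254.8 for *Nrtn*, 258.5 to 371.5 for *Ntrk3*, 141 to 418 for *Mia*, 112 to 144 for *Mdk* in MEC-like cells and 95.9 to 198 for *Mdk* in parenchymal-like fibroblasts. Only total UMIs turned any direction among the genes reported here: *Mia2* 0.46, *Mia3* 0.49 and *Pam* 1.03 in MEC-like cells, *Ret* 0.073 and *Ptn* 0.19 in fibroblast-like cells, and *Sort1* 0.22, *Mia3* 0.55, *Mia2* 0.61, *Ntn1* 1.00, *Pam* 0.78, *Sdc3* 0.99 and *Camk2d* 1.31 in duct-like cells (log2). The cause was not tested. The count of called genes moved to 9013 under total UMIs for MEC-like cells, to 9371 for duct-like cells, and to 1035 with DESeq2 for mural-like cells. Leaving out 1 library gave 2071 to 4446, 3982 to 4436, 638 to 1219 and, for fibroblast-like cells, 4174 to 5706, and 26 to 34, 28 to 40, 10 to 19 and 31 to 42 called partner genes. The lowest counts were without male library 2 for MEC-like cells and without the female library for mural-like cells, where 1145 were called without male library 1. Among members, *Mdk* in mural-like cells was −2.90 with DESeq2 (adjusted p = 0.0619) and −4.03 to −2.15 with 1 library left out. *Mia* in duct-like cells was 0.83 with DESeq2 (0.106) and 0.45 to 1.27 with 1 library left out, and *Cck* was 4.14 under total UMIs, 2.09 with under 5% mitochondrial UMIs, 1.605 without removal of doublets and 0.80 to 2.46 with 1 library left out. The other ranges with 1 library left out were 1.55 to 1.67 for *Ntrk3* in mural-like cells, 6.70 to 7.53 for *Mdk* in fibroblast-like cells, and 2.74 to 2.99 for *Nrtn*, 4.67 to 6.83 for *Ntrk3* and 2.54 to 2.91 for *Mdk* in duct-like cells. Without the replicate block, 3065, 1661, 4033 and 4827 genes were called for MEC-like, mural-like, fibroblast-like and duct-like cells, and no call on a member changed (*Nrtn* in duct-like cells 2.53, adjusted p = 0.0100). *Ntrk3* in mural-like cells had too few counts with under 5% mitochondrial UMIs and without the female library, as had *Mdk* in duct-like cells without the female library. At a depth of 148 mural-like cells, a member below the limits given for 0 could not be seen.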
